A study of Arabidopsis thaliana with 16 samples.

Results

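A set of 84 Arabidopsis transcripts had their highest level in the dissected shoot apex after 6 h of light, above the dark level and above the level at 1, 2, 24, 48 and 72 h. They were picked out of 22746 non-control probe sets, of which they made up 0.369%, on the 10 apex arrays of the series. Signals under 20 were raised to 20 and log2 values taken, and a probe set belonged to the set if the lower of its 6 h values exceeded the highest value on the other 8 apex arrays by 0.7 or more. The transcripts were thus chosen by their apex signals, which are given as a description with no test, while the 6 cotyledon arrays took no part in the choice and carry the tests.

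RNA was measured on 16 Affymetrix ATH1 expression arrays. All samples were the accession Landsberg erecta, with no transgene or mutation named. Stratified seeds received 30 min of white light at 100 µmol m-2 s-1, spent 3 days in darkness at 21 °C on agar medium lacking sucrose, and were either harvested or moved into white light. The shoot apex, cut below the meristem and at the bases of the cotyledons, was profiled on 2 arrays each for darkness, 1 h and 6 h of light, and on 1 array each for 2, 24, 48 and 72 h. The labels add developing leaf primordia to the apex tissue at 48 and 72 h. Cotyledon blades, without petiole and tip, were profiled on 2 arrays for darkness and 2 for either light period, 1 h or 6 h. Each sample pooled from about 1500 to more than 4000 dissected seedlings drawn from several plates and experiments, with 1 tissue taken per seedling. The samples analysed here hold no seedlings kept dark for longer, so light, age and time of day cannot be told apart. In these pooled tissues, fewer cells of a type and less RNA per cell cannot be told apart either.

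Seedlings that germinate in darkness hold the shoot meristem at rest, and light starts leaf initiation together with pigment synthesis. Anthocyanins are red flavonoid pigments that absorb excess light. Dihydroflavonol reductase (DFR) makes their precursors, and glycosyltransferases then attach sugars. Type-A response regulators are induced by cytokinin, a hormone that promotes activity of the shoot meristem, and dampen the signal that induces them.

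Arrays of the same group correlated between 0.893 and 0.924 over log2 signals of all non-control probe sets. The ratio of 3' to 5' signal of the GAPDH control, a sign of RNA integrity, was 5.40 in apex 6 h replicate 2, 1.45 in apex 6 h replicate 1, 0.832 to 1.85 on all further apex arrays and 1.73 to 4.72 on those of the cotyledon. The same ratio for the actin control was 30.4 in apex 6 h replicate 2, the highest of the series, and 9.87 in apex 6 h replicate 1. It was 5.20 to 14.1 on all further apex arrays and 6.71 to 14.2 on those of the cotyledon. Of 33 markers listed for other tissues and for the apex itself, 9 had a probe set matched to them alone. The meristem regulator CLV3 measured between 3.63 and 32.7 on the apex arrays, close to their dim end, and the axillary meristem gene LAS between 13.0 and 63.4. SPCH, MUTE and FAMA, all stomatal, were the 3 matched markers of the stomata and trichome list, without the trichome genes GL1 and GL2. These 3 summed to between 81.6 and 87.3 in the apex at 6 h, against 71.6 to 92.1 in the dark. They moved apart, with 28.5 and 23.9 at 6 h, against 2.22 and 1.68 in the dark, for MUTE and 21.2 and 11.4 at 6 h, against 30.0 and 47.8 in the dark, for FAMA. The 2 leaf primordium markers moved apart too, with 113 and 125 at 6 h, against 58.4 and 41.3 in the dark, for YAB5 and 137 and 160.3 at 6 h, against 206 and 259.6 in the dark, for YAB3. The cotyledon and mesophyll markers moved in opposite directions, with 4316 and 5516 at 6 h, against 2317 and 2265 in the dark, for RCA, the activase of Rubisco, and 806 and 1398 at 6 h, against 3667 and 3986 in the dark, for ICL, a glyoxylate cycle enzyme. None of the 6 vascular markers had a probe set matched to it alone in the annotation used, so their signals were not looked at. The part of tissue composition and RNA integrity in the 6 h peak, or in the cotyledon changes given below, was not tested.

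The median signal of the 84 transcripts in the apex was 34.7 and 37.9 on the dark arrays, 61.3 and 65.4 at 1 h, 97.0 at 2 h, 286 and 332 at 6 h, 95.8 at 24 h, 81.9 at 48 h and 53.1 at 72 h. The median climbed over the first hours, and at 72 h the median difference from the dark was 0.06 log2 units. For single transcripts the mean 6 h signal ran from 39.5 to 5857, 14 stayed under a signal of 100 on both 6 h arrays and 6 exceeded 1000 on both. The median difference from 6 h to the dark was 2.25 log2 units with low signals raised to 20 (range 0.96 to 5.84).

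**Figure D1:**
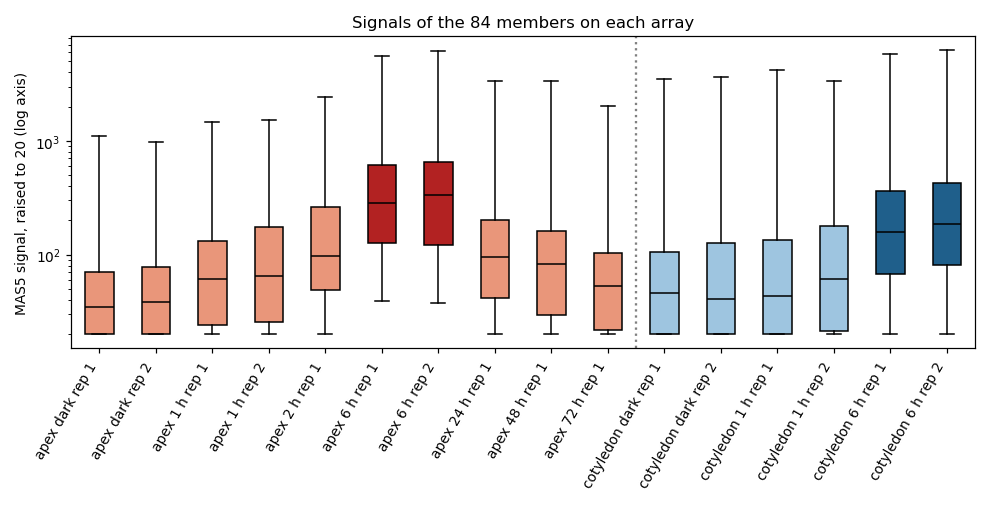
Signals of the 84 transcripts on each of the 16 arrays (MAS5 signal on a log axis, values under 20 raised to 20). Boxes span the quartiles with the median as a line, whiskers reach the lowest and highest transcript, apex is left and cotyledon right of the dotted line, and dark boxes mark 6 h, where the medians were 286 and 332 in the apex and 159 and 186 in the cotyledon.

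The transcripts differed in where their second highest apex value lay. It was the 2 h array for 31 transcripts, a 1 h array for 15, the 24 h array for 22, the 72 h array for 8 and a dark array for 4, while 4 were at or under 20 on all 8 other arrays. The 2 h array lay above both dark arrays for 70 transcripts (25.6% of all probe sets did so), the 24 h array for 69 (27.9%), the 48 h array for 60 (28.2%) and the 72 h array for 39 (29.3%). Both 1 h arrays lay above both dark arrays for 46 (19.5%). These counts rest on the apex arrays that chose the set and nothing is read from them. Of the 6 h replicates, which the rule required both to be high, replicate 1 was the higher for 34 transcripts and replicate 2 for 50, and 3 differed by 1 log2 unit or more. Without apex 6 h replicate 2, 230 probe sets met the rule, and without replicate 1, 326 did. Without the single 2 h array 154 did. Leaving out an array can only keep or add probe sets under this rule, so no transcript of the set could be lost.

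Among the 42 transcripts with 1 gene name, the widest gap between 6 h and the other apex arrays, 2.48 log2 units, was that of UF3GT (AT5G54060, also called UGT79B1), which adds xylose to anthocyanins. Its apex signals were 4.34 and 14.8 in the dark, 1.56 and 13.9 at 1 h, 69.5 at 2 h, 614 and 512 at 6 h, 92.1 at 24 h, 81.6 at 48 h and 21.9 at 72 h. Both 6 h values lay far above the 24 h value, the next highest, and the dark values were at or under the 35th percentile of their arrays, which ran from 12.4 to 18.6 signal units and served as the floor for folds. Against that floor UF3GT was at least 34.2-fold higher at 6 h than in the dark.

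DFR (AT5G42800) reached a similar level at 6 h. Its apex signals were 14.7 and 33.8 in the dark, 16.7 and 8.75 at 1 h, 28.3 at 2 h, 708 and 647 at 6 h, 268 at 24 h, 186 at 48 h and 60.2 at 72 h. No array at 1 or 2 h exceeded the higher dark value, and the signal peaked at 6 h at 30.4-fold the dark level and lay above both dark values at 24, 48 and 72 h.

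In the cotyledon neither gene reached such a level. UF3GT measured 29.4 and 3.26 in the dark, 3.89 and 11.4 at 1 h and 44.7 and 66.6 at 6 h there, and DFR 36.4 and 21.1 in the dark, 18.2 and 6.93 at 1 h and 37.3 and 44.5 at 6 h. Both cotyledon 6 h arrays lay above the dark and 1 h arrays for each gene, but the change from dark to 6 h was 2.48 ± 0.93 log2 units for UF3GT (SE, adjusted p = 0.0841, n = 2 arrays per group) and 0.55 ± 0.56 for DFR (adjusted p = 0.562), and neither passed limma's test. Against 1 h both passed the test, DFR with a rise of 1.86 log2 units (adjusted p = 0.0435) and UF3GT with a level at least 4.36-fold higher (adjusted p = 0.0487), since its 1 h arrays were under the floor. UF3GT reached the 2 arrays above the 35th percentile that the test needed only with its 6 h arrays. Its call was lost under 10 of 13 alternatives, among them those without either cotyledon 6 h array or cotyledon 1 h replicate 1 (adjusted p up to 0.300). That of DFR was lost under 9 of 14, among them those without either cotyledon 6 h array, cotyledon dark replicate 1 or cotyledon 1 h replicate 2 (adjusted p up to 0.231). At 6 h the apex signal was 10.3-fold that of the cotyledon for UF3GT and 16.6-fold for DFR, with no overlap of the arrays.

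Of 27 genes listed for flavonoid synthesis and its regulators, 8 had a probe set matched to them alone and 2 of these were in the set. Listed genes without a match could be among the 8730 probe sets with no gene name, which include 39 of the set. How much of the whole list peaked at 6 h is therefore not known. The other 6 of the 8 matched genes, named here after their values were seen, followed several courses in the apex. UGT78D2 (AT5G17050), which glucosylates flavonols and anthocyanins, was highest early, with 569 and 691 at 1 h, against 18.3 and 32.2 in the dark, and had 365 and 435 left at 6 h. The flavonol glycosyltransferases UGT89C1 (AT1G06000) and UGT78D1 (AT1G30530) were likewise lower at 6 h than at 2 h, with 118 and 157 at 6 h, against 431 at 2 h, for UGT89C1. UGT75C1 (AT4G14090), an anthocyanin glucosyltransferase, and 5MAT (AT3G29590), which adds malonate to anthocyanins, had their highest apex value on 6 h replicate 1 but missed the rule through 6 h replicate 2. UGT75C1 measured 379 and 94.1 at 6 h and 61.1 at 24 h, and 5MAT 116 and 27.1 at 6 h, against 7.14 and 28.0 in the dark. On 6 h replicate 2 the GAPDH ratio stood at 5.40 and the actin ratio at 30.4, and the part of RNA integrity in these values was not tested. In the cotyledon, 4 of the 8 listed genes rose and 0 fell from dark to 6 h by limma's test, with a list median of 2.61 log2 units, against -0.07 over all 16401 probe sets tested (9.38% higher and 9.52% lower). From 1 h to 6 h, 3 rose and 2 fell (6.3% and 6.54% of all). Those that rose included DFR and UF3GT, whose calls, given above, were lost under 9 of 14 and 10 of 13 alternatives. Those that fell were UGT78D2, with 282 and 237 at 6 h, against 561 and 618 at 1 h, and UGT89C1, with 279 and 291 at 6 h, against 506 and 531 at 1 h. CHIL (AT5G05270), which aids chalcone synthesis, rose from dark to 6 h by 3.57 ± 0.41 (adjusted p = 6.48e-05), and UGT89C1 rose by 2.83 ± 0.25 (adjusted p = 8.05e-06).

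**Figure D2:**
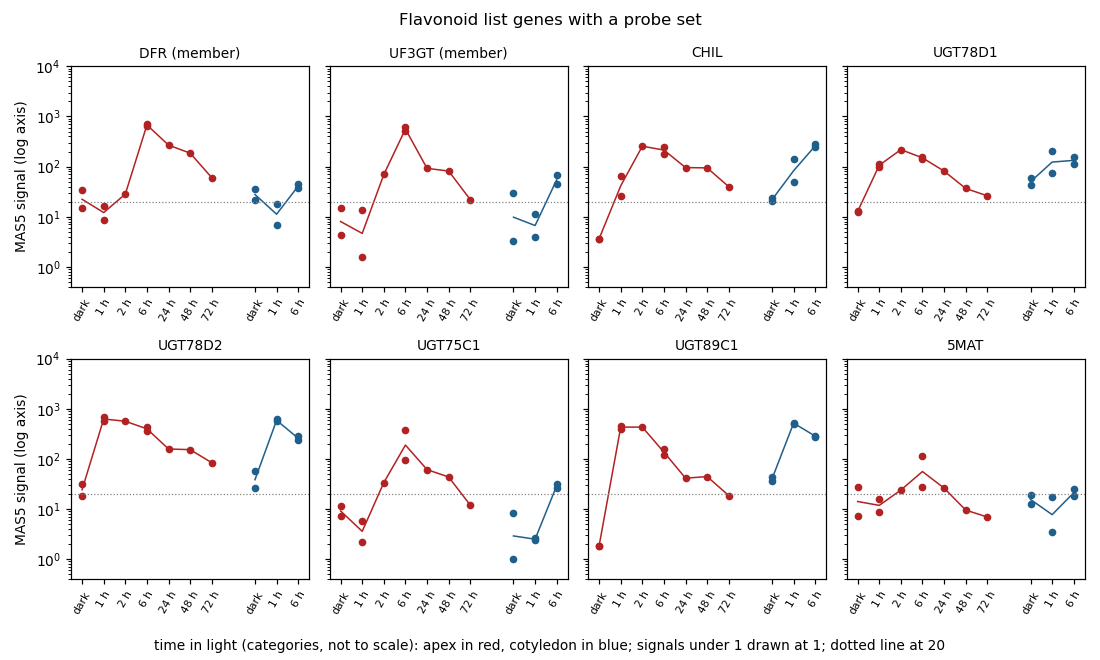
MAS5 signals (log axis) of the 8 flavonoid list genes with a matched probe set, 1 panel a gene, with apex in red and cotyledon in blue, points for arrays, lines through the group means of log2 signal and a dotted line at 20. UF3GT and DFR peak sharply at 6 h in the apex and stay under 70 in the cotyledon. In the apex UGT78D2 and UGT89C1 are highest in the first 2 h of light, and UGT75C1 and 5MAT have 6 h replicates that lie far apart.

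In the annotation used, 39 of the 84 had no gene name and 3 matched several genes. The widest gap of all, 3.19 log2 units, belonged to 1 of these, probe set 250083_at, with apex signals of 6.55 and 1.36 in the dark, 6.87 and 0.681 at 1 h, 65.6 at 2 h, 1039.8 and 765 at 6 h, 83.7 at 24 h, 82.7 at 48 h and 29.3 at 72 h. It was at least 54.4-fold higher at 6 h than in the dark. Probe set 252365_at, singled out after its values were seen, had 108 and 78.4 at 1 h, 472 at 2 h and 1255 and 963 at 6 h, against 17.3 and 4.65 in the dark, a difference of 5.78 log2 units from 6 h to the dark with signals raised to 20. In the cotyledon 252365_at rose from dark to 6 h by 4.78 ± 0.56 (adjusted p = 6.74e-05). Probe set 250083_at was under the floor on all cotyledon dark and 1 h arrays, entered the test only through the 6 h arrays and was at least 7.10-fold higher at 6 h than in the dark (adjusted p = 0.00758), a call lost without either cotyledon 6 h array (highest adjusted p = 0.269).

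The response regulator RR16 (AT2G40670, also called ARR16), a type-A regulator, was nearly dark in the unlit apex and climbed at each sampling to 6 h. Its apex signals were 0.493 and 1.54 in the dark, 25.4 and 21.9 at 1 h, 61.1 at 2 h, 143 and 171 at 6 h, 20 at 24 h, 29.2 at 48 h and 29.5 at 72 h. The peak was at least 9.53-fold the floor set by the dark arrays, and the 24 to 72 h values were all below the 2 h value. In the cotyledon it measured 6.32 and 14.0 in the dark, 44.9 and 61.2 at 1 h and 289.5 and 206 at 6 h, at least 15.7-fold higher at 6 h (adjusted p = 7.6e-06) and at least 3.37-fold higher at 1 h (adjusted p = 0.00326) than in the dark, where both arrays were under the floor. The 6 h level was lower in the apex than in the cotyledon, with no overlap. Of 16 genes listed for the cytokinin response, 1 other had a probe set matched to it, the type-A regulator ARR15 (AT1G74890). Its apex signals at 6 h, 22.6 and 2.83, lay close to or below those at 1 h, 23.6 and 19.7.

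A pair of glutaredoxin genes was in the set, neither of which was matched by the list of glutaredoxins and thioredoxins, whose 10 probe sets held 0 members. Glutaredoxins are small proteins that use glutathione to reduce or regulate other proteins. AT4G15680 had apex signals of 18.9 and 24.1 in the dark, 78.4 and 67.8 at 1 h, 151 at 2 h, 299.9 and 462 at 6 h, 80.2 at 24 h, 106 at 48 h and 155 at 72 h, so that it was already above the dark level at 1 h and still raised at 72 h. AT1G06830 did not exceed the higher dark value of 18.6 at 1 or 2 h and then measured 57.3 and 130.0 at 6 h, 31.3 at 24 h and 3.28 at 72 h. In the cotyledon AT4G15680 rose by 3.57 ± 0.36 from dark to 6 h (adjusted p = 2.06e-05), most of it by 1 h (2.71, adjusted p = 0.000434). AT1G06830 rose there by 3.55 ± 0.64 (adjusted p = 0.00156), a call lost without cotyledon 6 h replicate 2 (adjusted p = 0.0599).

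Several named members act on RNA or in making ribosomes. They were put together after their values were seen, and some are named for their cotyledon change, so how many of them rose is no result about such genes. AT5G20160 and AT4G22380 encode proteins of the L7Ae family, small RNA-binding proteins, AT3G16080 encodes a zinc-binding ribosomal protein of the large subunit, and AT1G52930 a Brix-domain protein of ribosomal RNA processing. AT5G20160 had apex signals of 281 and 269 in the dark, 411 and 509.7 at 1 h, 649.8 at 2 h, 1216 and 1391 at 6 h, 396 at 24 h, 428 at 48 h and 575 at 72 h. AT1G52930 had 41.3 and 72.5 in the dark, 78.6 and 80.0 at 1 h, 92.2 at 2 h, 218 and 236 at 6 h, 100.0 at 24 h, 103 at 48 h and 130.4 at 72 h. Both were highest at 6 h, dropped by 24 h to levels still above the dark arrays, and were higher again at 72 h than at 24 h. AT3G16080 was abundant throughout, with 2754 and 2947 at 6 h, against 508 and 628 in the dark.

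In the cotyledon AT5G20160 rose by 1.91 ± 0.25 from dark to 6 h (adjusted p = 0.000184) and AT1G52930 by 2.42 ± 0.31 (adjusted p = 0.000149), with signals of 239 and 353 at 6 h, against 48.3 and 61.1 in the dark. AT3G16080 rose by 1.20 ± 0.24 (adjusted p = 0.00308), and AT4G22380 by 2.00 ± 0.37 (adjusted p = 0.00207). The call of AT4G22380 was lost without cotyledon 6 h replicate 2 (adjusted p = 0.0546). AT1G29250, which encodes an Alba-type nucleic acid binding protein, rose by 1.53 ± 0.23 (adjusted p = 0.000432), and AT3G15010, an RNA-binding protein gene, by 1.27 ± 0.26 (adjusted p = 0.00341). NRPB9B (AT4G16265), a subunit of nuclear RNA polymerases, rose by 1.35 ± 0.29 (adjusted p = 0.00541), a call lost without cotyledon 6 h replicate 1 (adjusted p = 0.0691).

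The next members, of lipid-transfer, protease, knottin and lipase families, were put together in the same way, with no list tested. AT5G55450, of the lipid-transfer protein family, was at or under 20 on every apex array but those at 6 h, where it measured 50.1 and 98.7. In the cotyledon it was much brighter at 6 h, with 1.08 and 0.807 in the dark, 6.33 and 1.94 at 1 h and 214 and 221 at 6 h, at least 14.0-fold higher at 6 h than in the dark (adjusted p = 0.000201). It was under the floor on all cotyledon dark and 1 h arrays and entered the test only through the 6 h arrays, and its call was lost without cotyledon 6 h replicate 2 (adjusted p = 0.0682). AT5G62210, annotated as an embryo-specific protein, had 57.4 and 76.6 in the apex at 6 h, against 2.22 and 3.36 in the dark, and was at least 11.6-fold higher in the cotyledon at 6 h than in the dark (adjusted p = 7.75e-05), where both arrays were under the floor.

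The aspartyl protease gene AT3G54400 was already bright in the dark apex and dimmer in the dark cotyledon. Its apex signals were 394 and 281 in the dark, 469 and 392 at 1 h, 735 at 2 h, 1201 and 2584 at 6 h, 664 at 24 h, 478 at 48 h and 270.4 at 72 h, and the 6 h replicates lay over 1 log2 unit apart. Its cotyledon signals were 68.1 and 77.8 in the dark, 125 and 196 at 1 h and 2163 and 2516 at 6 h, and the rise from dark to 6 h of 5.00 ± 0.27 (adjusted p = 1.9e-07) had the smallest adjusted p of the set in that comparison. The knottin gene AT2G43550, coding for a small cysteine-rich protein, measured 301 and 330.3 in the apex at 6 h, against 14.6 and 3.51 in the dark, and rose in the cotyledon by 3.73 ± 0.42 (adjusted p = 4.94e-05). AT1G28570, of the GDSL lipase and esterase family, rose in the cotyledon by 1.85 ± 0.32 (adjusted p = 0.00130). The subtilase gene AT5G45650 rose by 2.20 ± 0.42 (adjusted p = 0.00246), a call lost without cotyledon 6 h replicate 1 (adjusted p = 0.0557).

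**Figure D3:**
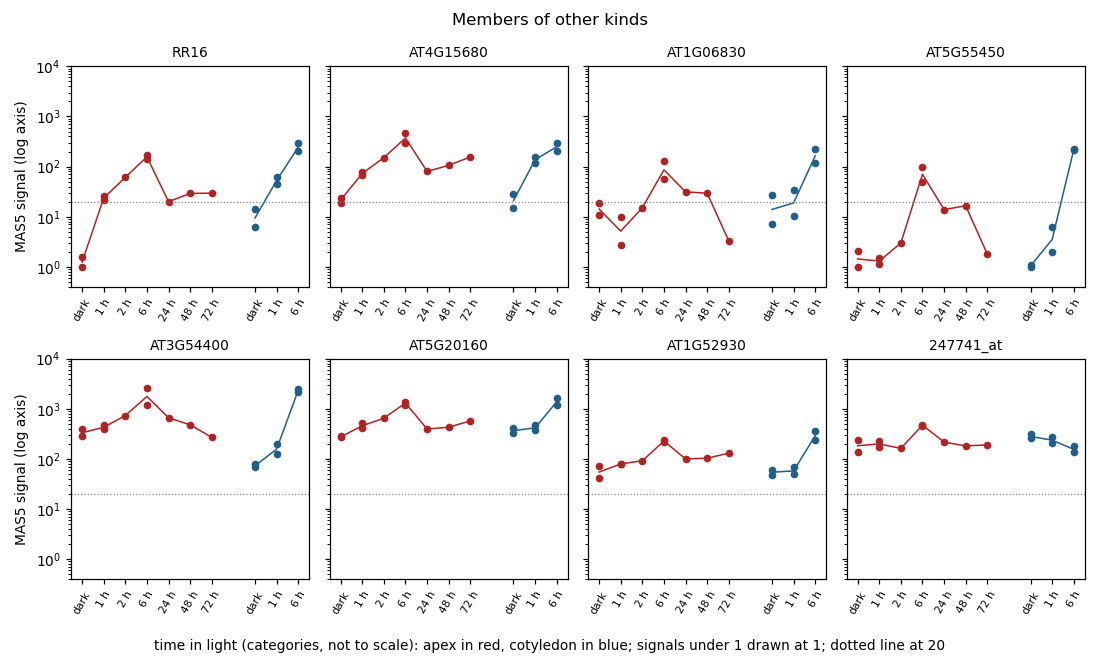
MAS5 signals (log axis) of 8 transcripts of the set, 1 panel each, with apex in red and cotyledon in blue, points for arrays, lines through the group means of log2 signal and a dotted line at 20. Every apex course peaks at 6 h by the rule, 7 of the 8 are also highest at 6 h in the cotyledon, and probe set 247741_at is lower there at 6 h, with 136 and 179, than in the dark, with 309 and 256.

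Of 28 genes listed for mitosis and cytokinesis, 6 had a probe set matched to them alone and 0 of these were in the set. As the set held 0.369% of all probe sets, nothing is read from a count of 0 over so few. The Aurora kinase gene AUR1 (AT4G32830), singled out after its value was seen, came close, with a gap of 0.64 log2 units and apex signals of 347 and 292 at 6 h, against 187 and 179 at 1 h and 82.6 and 77.2 in the dark. BUBR1 (AT2G33560), a spindle checkpoint gene singled out likewise, had the same gap of 0.64, with 69.2 and 55.7 at 6 h, against 13.3 and 26.6 in the dark. In the set itself, AT1G69400, a BUB3-type WD-repeat gene, measured 92.7 and 84.6 at 6 h, against 26.6 and 17.6 in the dark. Its cotyledon change of 0.95 ± 0.46 was not called (adjusted p = 0.179). Other lists had matched genes for light signalling (3), DNA replication (2), the clock (1), meristem and leaf primordium (6) and stomata and trichomes (4). Of these matched genes 0 were in the set, and nothing is read from these counts either.

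Further named members had other roles. AGL87 (AT1G22590), a MADS-box factor, measured 293 and 353 in the apex at 6 h, against 46.9 and 97.9 in the dark, and rose in the cotyledon by 1.95 ± 0.28 (adjusted p = 0.000276). FaTA (AT3G25110), an acyl-ACP thioesterase that releases fatty acids in the plastid, was dim, with 43.9 and 49.3 in the apex at 6 h, against 14.8 and 26.0 in the dark, and its cotyledon change of 0.48 ± 1.06 was not called (adjusted p = 0.814). AT5G04840, coding for a bZIP protein, had 90.1 and 79.6 at 6 h, against 16.5 and 37.8 in the dark, and AT1G26100, coding for a cytochrome b561, had 169 and 158, against 38.2 and 75.5 in the dark. Neither was called in the cotyledon from dark to 6 h (0.86 and 0.35 log2 units, adjusted p = 0.380 and 0.548). AT5G04840 was at least 3.04-fold higher at 6 h than at 1 h there (adjusted p = 0.0246), a call lost without either cotyledon 6 h array or cotyledon 1 h replicate 1 (adjusted p up to 0.159). The receptor-kinase gene AT1G11330, with an S-locus lectin domain, was dim, at 39.4 and 41.2 in the apex at 6 h, against 2.88 and 5.18 in the dark, and was not called in the cotyledon from dark to 6 h (adjusted p = 0.248).

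Several members with a wide gap have a gene number whose role is not given here. AT1G27030, with a gap of 1.39 log2 units, measured 52.4 and 53.6 in the apex at 6 h, against 3.41 and 9.45 in the dark, and AT1G03660, with 1.14, measured 94.9 and 84.2, against 3.97 and 1.31 in the dark. Neither was called in the cotyledon from dark to 6 h (adjusted p = 0.577 and 0.390). AT1G03660 rose there from 1 h to 6 h by 2.34 ± 0.56 (adjusted p = 0.0145), a call lost without either cotyledon 6 h array or cotyledon 1 h replicate 1 (adjusted p up to 0.114). From dark to 6 h, AT5G59500 rose there by 0.97 ± 0.24 (adjusted p = 0.0134), the WD-repeat gene AT4G04940 by 1.62 ± 0.37 (adjusted p = 0.00794) and AT1G17090 by 3.71 ± 0.80 (adjusted p = 0.00521). AT3G07910, AT5G01910 and AT4G20760, an NAD-binding Rossmann-fold protein gene, rose by 0.81, 1.26 and 1.12 log2 units (adjusted p = 0.0253, 0.0287 and 0.0226). The call of AT5G59500 was lost without cotyledon 6 h replicate 2 or either cotyledon dark array (adjusted p up to 0.123). The call of AT4G04940 was lost without cotyledon dark replicate 1 or cotyledon 6 h replicate 1 (adjusted p up to 0.0839). The call of AT1G17090 was lost without either cotyledon 6 h array and with signals raised to 20. Its cotyledon dark signals were 2.53, under the floor, and 26.8, and its change ran from 2.01 to 5.41 log2 units over the alternatives. The call of AT3G07910 was lost without either cotyledon dark array or either cotyledon 6 h array (adjusted p up to 0.170). The call of AT5G01910 was lost without cotyledon dark replicate 1 or either cotyledon 6 h array (adjusted p up to 0.213). The call of AT4G20760 was lost without cotyledon dark replicate 2 or either cotyledon 6 h array (adjusted p up to 0.225).

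Most of the set also rose in the cotyledon, on arrays that had no part in choosing it. From dark to 6 h, 59 of the 84 transcripts rose and 1 fell by limma's test (adjusted p under 0.05), where 9.38% of all probe sets tested rose and 9.52% fell. The set's median change was 1.54 log2 units, against -0.07 over all probe sets tested, and 83 of the 84 changes were above 0. With signals raised to 20, which bounds the change of dim transcripts, the median was 1.40 and 42 rose. In that setting 5.53% of all probe sets tested rose, with a median over all of -0.007. From 1 h to 6 h, 50 of the 84 rose and 0 fell, where 6.3% of all rose and 6.54% fell (with median centring of the arrays 32.5% of all calls were higher, against 49.1% as deposited), and at an unadjusted p under 0.05 the set had 68 changes, where 25.9% of all did. The 60 calls from dark to 6 h were 29 without cotyledon 6 h replicate 2, and the 50 from 1 h to 6 h were 17 without that array, 25 without cotyledon 6 h replicate 1 and 33 without cotyledon 1 h replicate 1. With the variance prior held constant over intensity, the counts of calls were 35 and 11. A probe set was tested if 2 or more cotyledon arrays held it above their 35th percentile, and 12 of the 84 met this only through the 6 h arrays. Of the 72 that also met it on the dark and 1 h arrays, a filter added after the data were seen, 54 rose and 1 fell from dark to 6 h, where 9.69% of all rose and 10.2% fell, and 45 rose and 0 fell from 1 h to 6 h, where 6.36% of all rose and 6.96% fell.

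The rise in the cotyledon came mostly after the first hour. From dark to 1 h, 5 of the 84 rose and 0 fell by limma's test, where 1.93% of all probe sets tested rose and 0.848% fell, with 18 at an unadjusted p under 0.05 (12.6% of all) and a median of 0.09. They were RR16, AT4G15680, AT3G54400 and probe sets 251984_at and 262730_at. With signals raised to 20, or with the variance prior without trend, the count was 0. The call of AT3G54400, 1.10 (adjusted p = 0.0456), was lost without either cotyledon dark array, cotyledon 1 h replicate 2 or either cotyledon 6 h array (highest adjusted p = 0.307), and that of 251984_at (adjusted p = 0.0136) without cotyledon dark replicate 1, cotyledon 1 h replicate 2 or either cotyledon 6 h array (highest adjusted p = 0.127). Both cotyledon 6 h arrays lay above all cotyledon dark and 1 h arrays for 74 of the 84 transcripts, where 15.7% of all probe sets did so. With a gap of 0.7 and signals raised to 20, the terms of the apex rule, 47 of the 84 and 3.17% of all probe sets did.

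**Figure D4:**
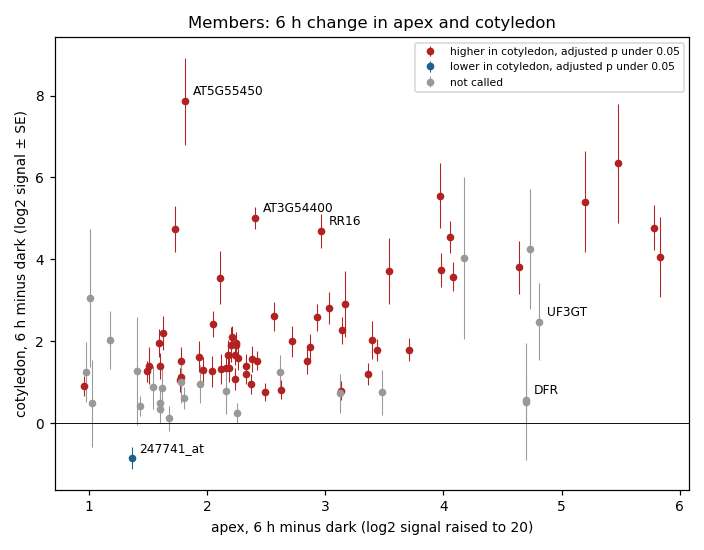
Change from dark to 6 h of the 84 transcripts, in the apex (horizontal, log2 signal with values under 20 raised to 20, no test) and in the cotyledon (vertical, log2 signal from limma, bars ± SE). Red points are the 59 that rose in the cotyledon, the blue point is 247741_at, which fell, and grey points were not called, with UF3GT and DFR among the grey points at the right. For transcripts under the floor in the dark cotyledon, the vertical value is the fitted one and no measured size.

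At 6 h the levels in apex and cotyledon differed for part of the set. With signals raised to 20, 11 transcripts were at least 2 log2 units higher in the apex than in the cotyledon at 6 h and 0 were as far the other way. Those 11 included UF3GT and DFR, and the others had no single gene name. Among them, 5 still rose in the cotyledon from dark to 6 h by limma's test, where 9.38% of all probe sets tested rose. Of these, 250083_at, 254283_s_at and 245501_at entered the test only through the 6 h arrays. Their calls were lost without either cotyledon 6 h array. Probe set 262119_s_at was the most uneven, with 612 and 440.4 in the apex at 6 h, against 20.15 and 21.1 in the cotyledon at 6 h. At the other end, 4 transcripts were at least 1 log2 unit lower in the apex, AT5G55450, AT5G62210 and probe sets 258920_at and 264319_at. Over the set, both apex 6 h arrays lay above both cotyledon 6 h arrays for 45 transcripts (22.4% of all probe sets) and below them for 16 (19.1%), and the tissues overlapped for 23. Since the apex 6 h level chose the set, these differences between tissues are a description.

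The cut at 0.7 ran through a continuum. Just inside it lay AT1G24530, with a gap of 0.70, and AT3G15010 and AT3G54400, each with 0.71. Just outside lay AT1G68430, AT5G07580 and AT2G41950, with gaps of 0.70, 0.70 and 0.69 after rounding. With the same rule, 254 probe sets were highest in the dark apex and 26 at 1 h, the other apex groups with 2 arrays. Of the 84 gaps, 27 were 1 log2 unit or more and 3 were 2 or more, those of 250083_at, UF3GT and 250558_at.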

How the data were processed

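The authors deposited a linear MAS5 signal, an intensity, for each probe set, with GCOS and MAS5 named in the submitters' processing notes and versions not given in the sources used here. The authors' scaling left a trimmed mean of 100.01 to 100.02 on each array (2% left out at each end). Values were used as deposited, as log2. The 64 control probe sets were left out. Of the 22746 others, 13513 matched 1 gene, 503 several and 8730 none in the platform annotation, and symbols were updated through the RefSeq table of TAIR10.1. No detection calls were given, so the array's 35th percentile (12.4 to 18.6) served as floor: a fold against a group wholly at or under it is given as "at least".

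The cotyledon test was limma 3.58.1 in R 4.3.3 on the 6 cotyledon arrays (3 group means, intensity trend, 3 residual and 10.5 prior degrees of freedom), two-sided, with Benjamini-Hochberg adjustment over 16401 probe sets in each of 3 contrasts. It was checked on simulated arrays. Arrays of the apex were left out of this fit because they chose the transcripts. The members and gene lists were chosen with earlier results of these data known. Genes named are, among members with 1 gene, the 20 with the widest gaps, those on a list, the 8 with the largest called cotyledon changes each way, those nearest the threshold and those at least 4-fold apart between tissues; other names were chosen after their values were seen. Replicates are separate pooled samples, and a p-value reflects no more than the spread among them, which may be technical. Promoter motifs and protein sequences were not analysed here.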

Additional observations from a re-analysis of the deposited data

Results flagged for a closer look

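Probe set 247741_at, which matched no gene in the annotation used, moved in opposite directions in the tissues. In the apex it had 461 and 482 at 6 h, against 241 and 139 in the dark, and in the cotyledon 136 and 179 at 6 h, against 309 and 256 in the dark. The cotyledon change was -0.85 ± 0.27 log2 units (SE, limma adjusted p = 0.0414), and the difference between the tissues was not tested. The cotyledon call was lost under 10 of 14 alternatives, including the loss of either cotyledon dark array or either cotyledon 6 h array (adjusted p up to 0.246 without 1 array). The direction was the same in each, though several alternatives leave the difference of means unchanged.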

How the results depend on the processing

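Alternatives that changed the filter, the variance prior or the replicate block, or added the apex arrays, left each difference of group means unchanged. Direction could not move under those. All 60 cotyledon calls of members from dark to 6 h, all 50 from 1 h to 6 h and all 5 from dark to 1 h kept their direction under every alternative run, and 22, 6 and 0 of them kept their calls throughout. The counts of calls among the 84, in that order of comparisons, ran from 29 to 62, from 17 to 52 and from 3 to 7 with 1 cotyledon array left out. Among all probe sets the counts as reported were 3100, 2105 and 456, and with 1 array left out they ran from 1647 to 3218, from 764 to 1949 and from 270 to 452. With signals raised to 20, members had 25 calls from 1 h to 6 h and 0 from dark to 1 h. All probe sets had 1803, 736 and 96. As deposited, 18 members were at an unadjusted limma p under 0.05 from dark to 1 h, where 12.6% of all probe sets tested were. With a limma variance prior without trend, members had 35, 11 and 0 calls and all probe sets 1255, 316 and 61. With all 16 arrays in the fit, members had 3 calls from dark to 1 h. Median centring gave 586 probe sets higher and 1215 lower from 1 h to 6 h, against 1033 and 1072 as deposited, and moved the median of all from 0.06 to -0.11, with members at 42 higher and 0 lower. It moved the median of all from dark to 1 h from -0.11 to 0.09. The cause of these changes was not tested, and leaving out 1 array cannot tell fewer arrays from the loss of that array.

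The rule itself gave 27 transcripts with a gap of 1 in place of 0.7. With 1 apex array left out it gave from 84 to 326, the highest without apex 6 h replicate 1. Leaving out an array can only keep or add probe sets under this rule, so these counts could not fall below 84. The count of 74 with both cotyledon 6 h arrays highest was 47 with a gap of 0.7. Same-numbered cotyledon arrays did not deviate together (correlations of -0.02, 0.08 and -0.02), so the numbers were not taken as pairs. With the replicate number as a block, members had 59, 46 and 6 calls, and the calls of 247741_at from dark to 6 h and of UF3GT from 1 h to 6 h were among those that ended. With 1 or 2 arrays per group and many dark signals near the dim end, the arrays limit what could be detected, and apex courses at 2, 24, 48 and 72 h rest on 1 array each.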
